A study of Homo sapiens with 12 samples.

Results

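The genes described here are those of glucose uptake, glycolysis, lactate handling and the transcriptional response to hypoxia. They were chosen by name, from a list of 42 genes, and each was read from the array probes whose annotated RefSeq transcript belongs to it. A probe was matched for 41 of the 42, and 40 were tested among the 25746 genes of the array. ALDOA had no matched probe, and the probe of EGLN3 stayed below the filter on dim probes. RNA came from 12 samples of PC-3, an established androgen-independent prostate cancer cell line, in 6 groups of 2. Control cells were stable pools carrying the empty pcDNA3.1 vector, and PIM1 cells were stable pools carrying the same vector with PIM1, a serine/threonine kinase, both selected with G418 and both carrying a Td-Tomato reporter. The WT and MM groups were the control pool after transient transfection, with Fugene HD, of wild-type NFATC1 or of its multi-mutant form, in which alanines replace the serines and threonines that PIM1 phosphorylates. The PIM1+WT and PIM1+MM groups were the PIM1 pool after the same transfections. The methods place RNA extraction on the following day, while elsewhere the study gives a later time for the array samples. For the control and PIM1 groups the labels give no transient transfection. Each pair of groups shared its arrays, namely control with PIM1, WT with MM, and PIM1+WT with PIM1+MM. Cy3 marked control, WT and PIM1+WT RNA, and Cy5 marked that of PIM1, MM and PIM1+MM cells. No dye was swapped, so that each comparison within a pair sets one dye against the other, and dye and group cannot be told apart in it. Nothing in the labels says whether the 2 samples of a group came from separate cultures, and p-values then measure only the spread between these samples, which may be technical.

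Glycolysis splits glucose into pyruvate, and lactate dehydrogenase turns pyruvate into lactate when it is not burnt in mitochondria. When oxygen is low, the alpha subunits of the hypoxia-inducible factors (HIF) escape degradation, pair with ARNT and bind a short core sequence, the hypoxia response element, near many glycolytic genes and near genes of pH balance, collagen hydroxylation and mitophagy. Many tumour cells keep the pathway high in normal oxygen as well, and lactate leaves them through transporters that need the membrane protein basigin (BSG) as a chaperone.

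Values are log2 intensities after quantile normalization, and a difference was said to pass the test when its Benjamini-Hochberg adjusted p from limma, over all 25746 genes, was below 0.05. It was called when it also reached 1 on the log2 scale, a 2-fold difference. The share of spots well above background ran from 56.9% to 69% over the 12 channels, 0 spots were saturated, and the median raw intensity was 86 to 139 in the 6 Cy3 channels but 176 to 318 in those of Cy5. Of the 40 genes, 39 were well above background in all 12 channels and 17 lay in the brightest of 10 equal classes of genes by mean intensity. SLC2A3 was well above background in no channel, and its values, between 6.03 and 6.36, are bounds. The median SD between the 2 samples of a group was 0.053 over the 40 genes, and precision is limited throughout by there being 2 arrays a group. PIM1 itself read 10.05 and 9.85 in control cells and 10.32 and 10.08 in PIM1 cells, a difference of 0.25 (SE 0.0996, adjusted p = 0.107 from limma) that did not pass the test. With NFATC1 its stable PIM1 differences were -0.23 among WT cells (adjusted p = 0.137) and 0.15 among MM cells (adjusted p = 0.339), and PIM1+WT cells were below PIM1+MM cells (-0.36, adjusted p = 0.0403). The PIM1 probe thus did not show the labelled overexpression, so that stable PIM1 below means the labelled pool. NFATC1 was at 7.58 in control, 6.91 in PIM1, 8.02 in WT, 9.84 in MM cells, and at 7.58 in PIM1+WT cells against 9.65 in PIM1+MM cells. PIM1+WT cells thus read no higher than control cells, and NFATC1 was lower with WT than with MM vectors, at -1.82 without stable PIM1 (adjusted p = 3.65e-05 from limma) and -2.07 with it (adjusted p = 9.58e-06). The part of this gap in the WT and MM results below was not tested. Whether these probes lie within the transfected sequences is not known here, and the labels are checked only in part. The study itself reports overexpression of PIM1 and/or NFATC1 in the array samples by real-time PCR, a separate assay. Epithelial markers were well above background in all 12 channels for 4 of 5 genes, and the prostate marker KLK3 was so in 0. Of the markers of other cell types, the endothelial gene PECAM1 rose by 0.99 from control to PIM1 cells (adjusted p = 7.71e-06 from limma) and the epithelial gene EPCAM fell by 0.68 (adjusted p = 0.000432 from limma); their part in the results below was not tested.

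In PIM1 compared with control cells, most of the glycolytic enzymes were higher and a mixed set of HIF targets moved both ways. Of the 40 genes, 18 rose (12.6% of all genes did), 6 fell (12.4% of all genes did) and 16 did not pass the test. Their median difference was 0.145, against 0.009 over all genes, and 2 were called, PFKFB4 and P4HA1 (1.17% of all genes were). Centring each channel on its median instead left 1 that rose and 6 that fell, as given further below. Stable PIM1 was also compared in the presence of NFATC1, between samples of the same dye. Between PIM1+WT and WT cells, both in Cy3, 12 genes rose (13.3% of all genes did), 5 fell (14% of all genes did) and 1 was called (1.28% of all genes were). Between PIM1+MM and MM cells, both in Cy5, 10 rose (10% of all genes did), 4 fell (9.38% of all genes did) and 0 were called. At an unadjusted p below 0.05 in limma, 11 were higher and 7 lower, a threshold at which all genes were not counted. In the mean of these 2 within-dye differences, 15 rose and 6 fell, and 34% of all genes passed in one direction or the other. That mean shares its samples with both of them. In each of the first 3 of these comparisons the share of the 40 genes that rose was above that of all genes, and the share that fell was near it. All genes include many dimmer ones, and a share among genes of like brightness was not counted. Of 10 reference genes outside the list, 4 rose and 3 fell in the first comparison, 4 rose and 4 fell in the second, and 1 rose and 3 fell in the third.

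**Figure D1:**
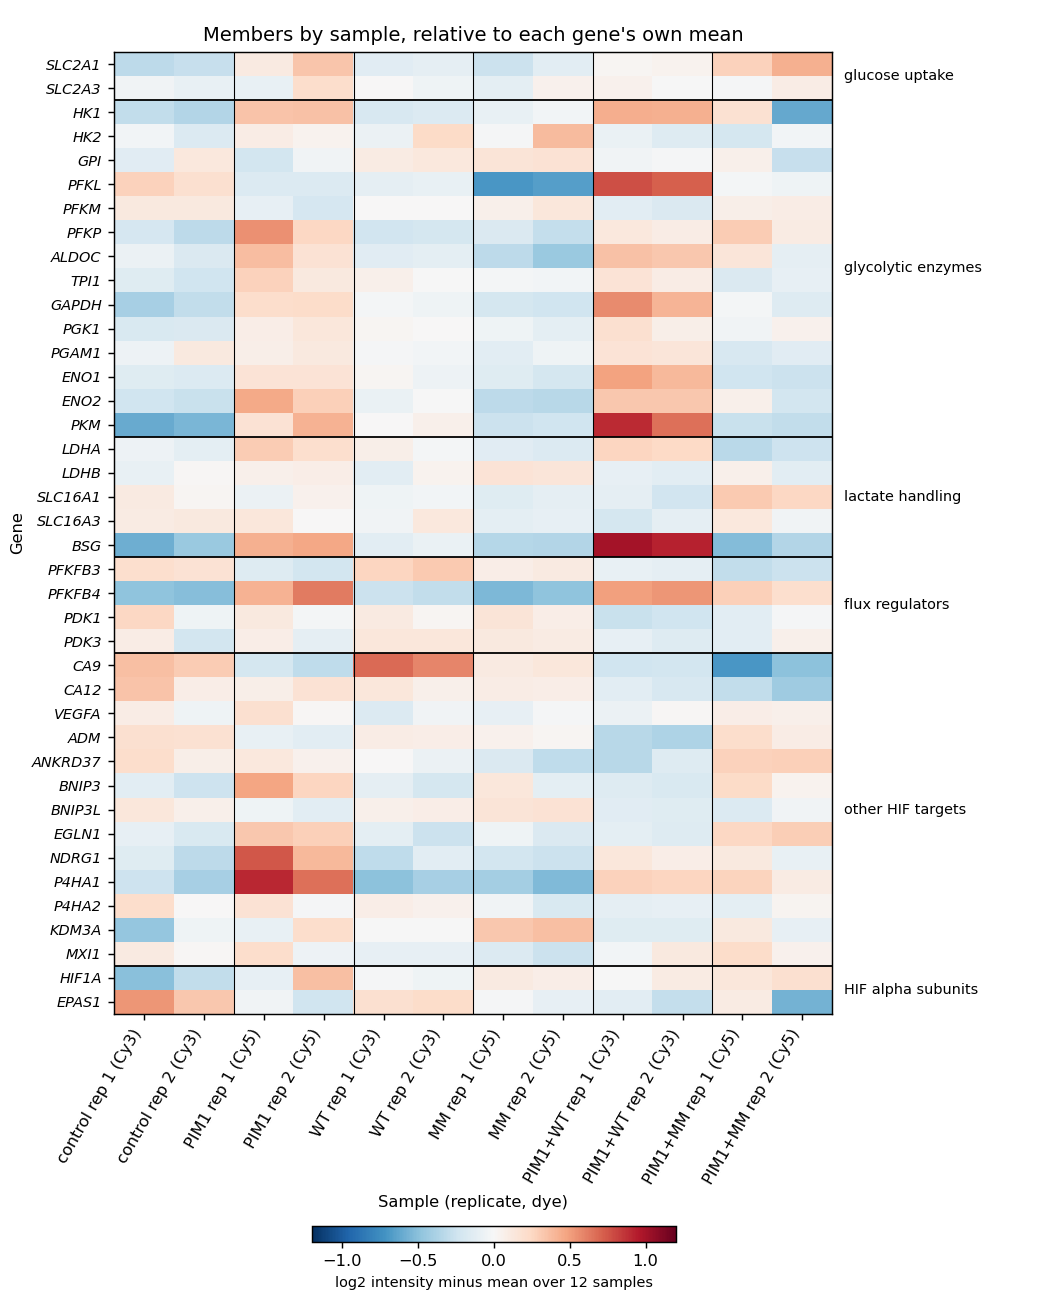
Log2 intensity of the 40 tested genes (rows, grouped by role) in the 12 samples (columns, with replicate and dye), each as its difference from the gene's own mean over the 12 samples; red is higher and blue is lower. BSG, PKM, PFKFB4 and P4HA1 are low in both control samples and high in both PIM1 samples, CA9 shows the opposite, and PIM1+MM replicate 2 is low for HK1 and EPAS1.

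Glucose enters through SLC2A1 (GLUT1), the basal glucose transporter. SLC2A1 read 10.88 and 10.91 in control cells, 11.29 and 11.52 in PIM1 cells, 11.05 and 11.08 in WT cells, 10.93 and 11.06 in MM cells, 11.21 and 11.23 in PIM1+WT cells and 11.46 and 11.61 in PIM1+MM cells. The PIM1 and PIM1+MM samples were the highest, above every sample of the other 4 groups. SLC2A1 rose by 0.51 from control to PIM1 cells (SE 0.0882, adjusted p = 0.0024 from limma) and by 0.54 from MM to PIM1+MM cells (adjusted p = 0.00281), the former turning to -0.16 after median centring. Between WT and PIM1+WT cells the difference was 0.15 (adjusted p = 0.268).

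Among the 14 glycolytic enzymes tested, 9 rose and 2 fell from control to PIM1 cells, with a median of 0.354, against 0.009 over all genes, and after median centring the enzymes that rose, other than ENO2 and PKM, turned below 0. GAPDH, which oxidises glyceraldehyde 3-phosphate and often serves as a loading reference, read 15.91 and 16.01 in control cells, 16.52 and 16.53 in PIM1 cells, 16.29 and 16.26 in WT cells, 16.10 and 16.07 in MM cells, 16.88 and 16.72 in PIM1+WT cells and 16.29 and 16.16 in PIM1+MM cells. Both PIM1 samples and both PIM1+WT samples lay above all other samples. GAPDH rose by 0.56 in PIM1 cells (SE 0.0736, adjusted p = 0.000537 from limma; -0.08 after median centring), by 0.53 in PIM1+WT over WT cells (adjusted p = 0.000708), and differed by 0.14 between MM and PIM1+MM cells (adjusted p = 0.239).

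PKM, pyruvate kinase, which makes pyruvate and ATP in the last step, read 15.06 and 15.13 in control cells, 15.84 and 16.09 in PIM1 cells, 15.68 and 15.73 in WT cells, 15.42 and 15.44 in MM cells, 16.57 and 16.33 in PIM1+WT cells and 15.40 and 15.38 in PIM1+MM cells. Control cells were lowest and PIM1+WT cells highest, and PIM1+MM cells lay close to MM cells, at a difference of -0.04 (adjusted p = 0.848 from limma). PKM rose by 0.87 in PIM1 cells, a 1.83-fold difference (SE 0.0962, adjusted p = 0.000216 from limma). ENO1, the enolase that makes phosphoenolpyruvate, read 14.48 and 14.46 in control cells and 14.79 and 14.79 in PIM1 cells. It read 14.64 and 14.56 in WT cells, 14.48 and 14.41 in MM cells, 15.11 and 15.02 in PIM1+WT cells and 14.39 and 14.37 in PIM1+MM cells. As for PKM, PIM1+WT samples lay highest and PIM1 samples next, while PIM1+MM samples were the lowest. ENO1 rose by 0.32 in PIM1 cells (adjusted p = 0.00363 from limma; -0.47 after median centring) and by 0.46 in PIM1+WT over WT cells (adjusted p = 0.000446).

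PGK1, which forms the first ATP of the pathway, read 15.61 and 15.62 in control cells and 15.87 and 15.92 in PIM1 cells, a rise of 0.28 (adjusted p = 0.0101 from limma) that turned to -0.40 after median centring and passed in 3 of 5 fits with a sample or array left out. It read 15.81 and 15.79 in WT cells, 15.74 and 15.68 in MM cells, 15.99 and 15.86 in PIM1+WT cells and 15.75 and 15.85 in PIM1+MM cells, and its stable PIM1 differences there, 0.12 with WT and 0.09 with MM NFATC1, did not pass the test. The 3 phosphofructokinase subunits, which commit glucose to the pathway, did not move together. PFKP rose in PIM1 cells by 0.65 (adjusted p = 0.00183 from limma), PFKM fell by 0.27 (adjusted p = 0.008) and PFKL fell by 0.39 (adjusted p = 0.0009). PFKL, the liver-type subunit, read 11.30 and 11.22 in control cells, 10.86 and 10.87 in PIM1 cells, 10.92 and 10.94 in WT cells, 10.33 and 10.37 in MM cells, 11.80 and 11.74 in PIM1+WT cells and 11 and 10.98 in PIM1+MM cells. Its direction with stable PIM1 turned over with NFATC1: PFKL was higher by 0.84 in PIM1+WT than in WT cells (adjusted p = 1.39e-05 from limma) and by 0.64 in PIM1+MM than in MM cells (adjusted p = 0.000102). The first of these 3 comparisons sets Cy5 against Cy3 and the others stay within a dye, and whether the dye plays a part in the turn was not tested.

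Of the other enzymes, ENO2, the neuronal enolase, rose by 0.62 in PIM1 cells, TPI1, the triose isomerase, by 0.39, and ALDOC, an aldolase, by 0.39. GPI, HK2 and PGAM1 did not pass the test, with differences of -0.13, 0.17 and 0.07. The value of HK2 is the middle of 2 probes, one at 0.37 (SE 0.0841) and one near the level of background at -0.04 (SE 0.242). HK1, a hexokinase that traps glucose in the cell, rose by 0.67 in PIM1 cells (adjusted p = 0.0334 from limma). HK1 has its only spot among the first 33 rows of the array, where the Cy5 channel of PIM1+MM replicate 2 was low: it read 12.48 in PIM1+MM replicate 1 and 11.68 in replicate 2. With those rows left out of that channel, HK1 was higher by 0.25 in PIM1+MM than in MM cells (adjusted p = 0.0366 from limma), against -0.15 (adjusted p = 0.665) with them. The rows also hold the only spot of EPAS1 and a probe each of MXI1, VEGFA and HIF1A.

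Lactate handling had 5 genes, of which 2 rose in PIM1 cells and 3 did not pass the test. BSG (basigin, CD147), the chaperone that carries lactate transporters to the membrane, read 12.07 and 12.22 in control cells, 13.08 and 13.12 in PIM1 cells, 12.53 and 12.58 in WT cells, 12.31 and 12.30 in MM cells, 13.65 and 13.58 in PIM1+WT cells and 12.13 and 12.31 in PIM1+MM cells. The PIM1+WT samples lay highest, then the PIM1 samples, with a clear gap to the other 4 groups. BSG rose by 0.96 in PIM1 cells (SE 0.076, adjusted p = 3.75e-05 from limma) and by 1.06 in PIM1+WT over WT cells (adjusted p = 1.91e-05), and differed by -0.09 with PIM1 among MM cells (adjusted p = 0.49). The study lists BSG among genes that it selected on these samples, so that its direction here is not independent evidence. LDHA, the lactate dehydrogenase subunit that favours lactate, read 14.63 and 14.57 in control cells, 14.99 and 14.89 in PIM1 cells, 14.76 and 14.66 in WT cells, 14.55 and 14.53 in MM cells, 14.95 and 14.92 in PIM1+WT cells and 14.37 and 14.44 in PIM1+MM cells. LDHA rose by 0.34 in PIM1 cells (adjusted p = 0.00364 from limma) and by 0.23 in PIM1+WT over WT cells (adjusted p = 0.0256), and after median centring these were -0.37 and -0.09. Its 2 probes differed in the latter comparison, at 0.07 and 0.39. LDHB and the lactate transporters SLC16A1 (MCT1) and SLC16A3 (MCT4) differed by 0.11, -0.07 and -0.04 between PIM1 and control cells, none of which passed the test.

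The regulators of flux gave the opposite directions for a pair of related enzymes. PFKFB4 and PFKFB3 both make and break fructose 2,6-bisphosphate, the activator of phosphofructokinase. PFKFB4 read 9.99 and 9.96 in control cells, 10.88 and 11.10 in PIM1 cells, 10.21 and 10.17 in WT cells, 9.93 and 9.99 in MM cells, 10.97 and 11 in PIM1+WT cells and 10.76 and 10.67 in PIM1+MM cells. Every sample with stable PIM1 lay above every sample without it. PFKFB4 rose by 1.01 in PIM1 cells, a 2.02-fold difference (SE 0.0749, adjusted p = 2.59e-05 from limma), by 0.79 in PIM1+WT cells (adjusted p = 8.64e-05) and by 0.76 in PIM1+MM cells (adjusted p = 0.000197). PFKFB3 read 8.66 and 8.64 in control cells, 8.30 and 8.24 in PIM1 cells, 8.72 and 8.77 in WT cells, 8.54 and 8.56 in MM cells, 8.37 and 8.35 in PIM1+WT cells and 8.16 and 8.20 in PIM1+MM cells, so that every sample with stable PIM1 lay below every sample without it. PFKFB3 fell by 0.38 in PIM1 cells (adjusted p = 0.000943 from limma), by 0.39 in PIM1+WT cells and by 0.37 in PIM1+MM cells, and the first of these turned to 0.12 after centring on the 75th percentile. These values are the middle of 2 probes. The brighter gave -0.451, -0.605 and -0.562 in the same order. The other, with group means between 6.31 and 6.74 and so near the level of background, gave -0.307, -0.168 and -0.18. PDK1, a kinase that shuts pyruvate dehydrogenase, passed in the PIM1+WT comparison, where it fell by 0.32 (adjusted p = 0.0405 from limma), and PDK3 passed in none of the 3.

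Of the 13 other HIF targets tested, 4 rose and 2 fell in PIM1 cells (12.6% and 12.4% of all genes did), with a median of 0.014 that is close to the 0.009 over all genes. P4HA1, a subunit of the prolyl hydroxylase that stabilises collagen, had the largest difference of all 40 genes. It read 11.97 and 11.82 in control cells, 13.12 and 12.88 in PIM1 cells, 11.73 and 11.82 in WT cells, 11.81 and 11.69 in MM cells, 12.50 and 12.47 in PIM1+WT cells and 12.48 and 12.32 in PIM1+MM cells. P4HA1 was higher in every sample with stable PIM1, by 1.11 in PIM1 cells, a 2.16-fold difference (SE 0.0984, adjusted p = 6.94e-05 from limma), by 0.71 in PIM1+WT cells (adjusted p = 0.000675) and by 0.65 in PIM1+MM cells (adjusted p = 0.0019). NDRG1, a stress-induced differentiation gene, read 13.92 and 13.76 in control cells and 14.81 and 14.46 in PIM1 cells, 13.76 and 13.94 in WT cells, 13.84 and 13.80 in MM cells, 14.20 and 14.15 in PIM1+WT cells and 14.18 and 13.98 in PIM1+MM cells. Its PIM1 samples lay above all others. NDRG1 rose by 0.80 in PIM1 cells (adjusted p = 0.00128 from limma), while its differences with NFATC1, 0.32 and 0.25, did not pass the test. BNIP3, a mitophagy receptor, and EGLN1 (PHD2), the oxygen sensor that marks HIF alpha for degradation, rose in PIM1 cells by 0.55 and 0.45, and after median centring both were below 0.

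CA9 (carbonic anhydrase IX), the pH-regulating enzyme that is among the most used markers of HIF activity, went the other way. CA9 read 7.74 and 7.68 in control cells, 7.17 and 7.07 in PIM1 cells, 8.06 and 7.96 in WT cells, 7.48 and 7.51 in MM cells, 7.14 and 7.15 in PIM1+WT cells and 6.68 and 6.88 in PIM1+MM cells. Every sample with stable PIM1 lay below every sample without it. CA9 fell by 0.59 in PIM1 cells (SE 0.0771, adjusted p = 0.000541 from limma), by 0.87 in PIM1+WT cells (adjusted p = 6.12e-05) and by 0.71 in PIM1+MM cells (adjusted p = 0.000309). CA9 is dim, and on the scanner software's background-subtracted signal the same 3 differences were -0.99, -1.50 and -1.55. Other alternatives made them smaller. Over all alternatives that kept every sample, the first ran from -0.991 to -0.038 and passed the test in 15 of 16. The second ran from -1.495 to -0.779 and passed in 14 of 15, and the third from -1.551 to -0.435 and passed in 13 of 15. ADM (adrenomedullin), a secreted vasodilator peptide, fell by 0.29 in PIM1 cells (adjusted p = 0.00525 from limma) and by 0.44 in PIM1+WT cells (adjusted p = 0.00052). VEGFA, the angiogenic factor, did not pass the test in any comparison, and its 2 probes differed in sign between PIM1 and control cells, at -0.45 and 0.62. ANKRD37, BNIP3L, CA12, P4HA2, KDM3A and MXI1 also did not pass the test in PIM1 against control cells.

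The alpha subunits moved apart. HIF1A read 10.25 and 10.46 in control cells and 10.66 and 11.12 in PIM1 cells, 10.74 and 10.70 in WT cells, 10.86 and 10.84 in MM cells, 10.75 and 10.85 in PIM1+WT cells and 10.89 and 10.95 in PIM1+MM cells. The control samples were the lowest, and the PIM1 samples spanned those of the other 4 groups. HIF1A rose by 0.53 in PIM1 cells (SE 0.132, adjusted p = 0.0162 from limma; -0.09 after median centring), with 0.08 and 0.07 in the within-dye comparisons (adjusted p = 0.741 and 0.784). The former is the middle of 2 opposed probes, at -0.25 (SE 0.0801) and 0.41 (SE 0.287). In fits that lacked 1 control or PIM1 sample, or the first array of these groups, the HIF1A difference between PIM1 and control cells ran from 0.30 to 0.76 and passed the test in 3 of 5 fits. EPAS1, which encodes HIF-2 alpha, read 10.22 and 10.02 in control cells and 9.65 and 9.45 in PIM1 cells, and fell by 0.57 (SE 0.183, adjusted p = 0.0485 from limma). It read 9.88 and 9.91 in WT cells, 9.68 and 9.59 in MM cells, 9.57 and 9.41 in PIM1+WT cells and 9.79 and 9.12 in PIM1+MM cells. The EPAS1 difference passed the test in 0 of the 5 fits with a sample or array left out, where its adjusted p ran from 0.0681 to 0.214.

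**Figure D2:**
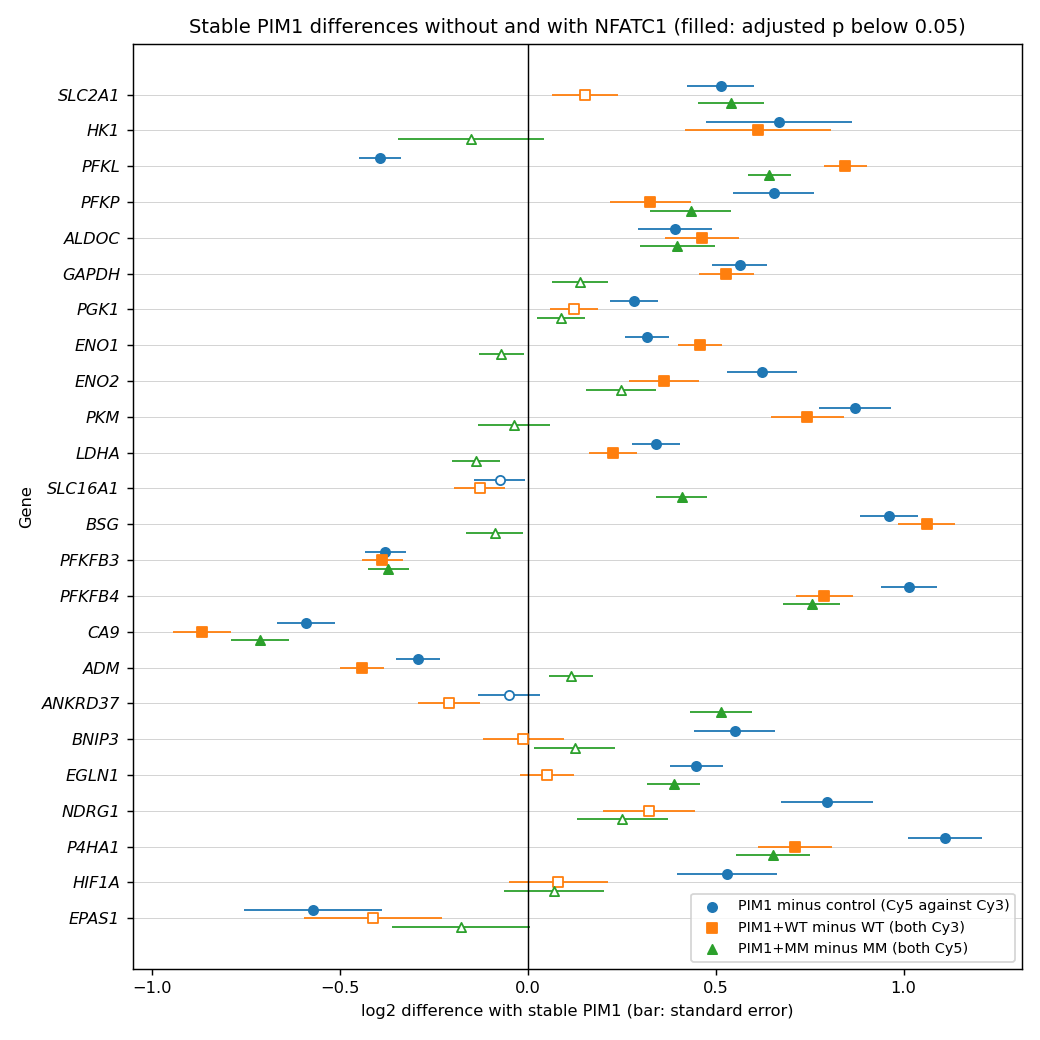
Log2 difference with stable PIM1 (x axis, with the standard error from limma as a bar) for 24 genes in PIM1 minus control cells (circles), PIM1+WT minus WT cells (squares) and PIM1+MM minus MM cells (triangles); filled symbols passed the test. PFKFB4, P4HA1, PFKP and ALDOC lie above 0 and CA9 and PFKFB3 below it in all 3 comparisons, while PKM, BSG, ENO1 and LDHA lie above 0 in the first 2 and slightly below 0 in the third. These are values after quantile normalization, and PFKP, ALDOC, ENO1 and LDHA in PIM1 minus control cells were below 0 after median centring.

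The 3 comparisons of stable PIM1 share no sample, although the latter pair share their arrays. PFKFB4, P4HA1, ALDOC and PFKP rose in all 3, which is 10% of the 40 genes against 4.42% of all genes, and CA9 and PFKFB3 fell in all 3, 5% against 4.37%, though between PIM1 and control cells ALDOC, PFKP and PFKFB3 turned sign under a centring. The starts of these 6 genes are shown because they passed the test in all 3 comparisons, in directions that differ between genes. P4HA1 and CA9 were listed as HIF targets, ALDOC and PFKP as glycolytic enzymes, and PFKFB4 and PFKFB3 as regulators of flux. Each window runs from 250 bases before to 50 bases after the RefSeq start, 5′ to 3′ on the gene's strand, in GRCh38.p14, and capitals mark the core of the hypoxia response element, ACGTG or GCGTG, on either strand (read as CACGT or CACGC where it lies on the opposite one). The windows lie at chr3:48556754-48557053 (minus strand) for PFKFB4, chr10:73096817-73097116 (minus) for P4HA1, chr17:28576846-28577145 (minus) for ALDOC, chr10:3067720-3068019 (plus) for PFKP, chr10:6144671-6144970 (plus) for PFKFB3 and chr9:35673678-35673977 (plus) for CA9.
PFKFB4: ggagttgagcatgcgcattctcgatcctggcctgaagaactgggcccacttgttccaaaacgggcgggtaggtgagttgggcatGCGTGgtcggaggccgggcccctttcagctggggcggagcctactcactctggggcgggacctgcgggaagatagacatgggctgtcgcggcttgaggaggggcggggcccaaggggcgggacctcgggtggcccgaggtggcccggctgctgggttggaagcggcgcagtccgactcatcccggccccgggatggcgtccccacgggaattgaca
P4HA1: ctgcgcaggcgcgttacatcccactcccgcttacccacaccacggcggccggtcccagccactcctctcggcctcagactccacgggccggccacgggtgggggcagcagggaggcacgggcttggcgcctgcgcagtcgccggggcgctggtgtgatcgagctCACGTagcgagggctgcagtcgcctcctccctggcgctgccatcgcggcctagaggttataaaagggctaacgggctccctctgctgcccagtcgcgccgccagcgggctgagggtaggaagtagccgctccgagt
ALDOC: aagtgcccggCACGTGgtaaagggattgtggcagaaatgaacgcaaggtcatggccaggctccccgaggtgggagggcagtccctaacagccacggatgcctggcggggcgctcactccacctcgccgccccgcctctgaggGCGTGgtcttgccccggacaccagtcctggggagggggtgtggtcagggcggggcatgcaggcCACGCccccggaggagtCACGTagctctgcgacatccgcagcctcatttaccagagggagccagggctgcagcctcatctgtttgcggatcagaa
PFKP: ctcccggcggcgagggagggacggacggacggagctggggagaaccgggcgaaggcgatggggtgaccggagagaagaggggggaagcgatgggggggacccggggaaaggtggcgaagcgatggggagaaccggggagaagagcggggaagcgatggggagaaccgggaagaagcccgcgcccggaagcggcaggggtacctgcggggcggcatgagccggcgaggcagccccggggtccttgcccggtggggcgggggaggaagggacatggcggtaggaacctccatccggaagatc
PFKFB3: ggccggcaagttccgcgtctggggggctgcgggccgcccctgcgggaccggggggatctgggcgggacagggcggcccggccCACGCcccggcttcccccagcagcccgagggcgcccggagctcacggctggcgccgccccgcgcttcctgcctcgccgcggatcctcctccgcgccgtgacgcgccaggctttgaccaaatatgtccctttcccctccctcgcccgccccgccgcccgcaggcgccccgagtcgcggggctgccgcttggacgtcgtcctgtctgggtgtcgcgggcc
CA9: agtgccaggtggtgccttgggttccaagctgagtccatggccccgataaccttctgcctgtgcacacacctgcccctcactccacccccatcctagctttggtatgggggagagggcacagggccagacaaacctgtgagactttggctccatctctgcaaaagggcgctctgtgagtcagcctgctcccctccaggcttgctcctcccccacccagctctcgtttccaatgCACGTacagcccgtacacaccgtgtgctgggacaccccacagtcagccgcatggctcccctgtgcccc
The core occurred once in the windows of PFKFB4, P4HA1, PFKFB3 and CA9, 5 times in that of ALDOC and not in that of PFKP. A palindromic CACGTG, as in ALDOC, counts on both strands and is also the core of the E-box, the site of MYC and related factors. The core was present in 26 of the 37 listed genes with a window (70.3%), against 48.4% of the 35116 RefSeq windows of the same length. A single window, the first given, stood for each listed gene, while the comparison counts every window, so the units differ. The 37 include ALDOA and EGLN3, which were not tested. The core holds a CG pair, and among windows with at least 14 CG pairs, the median, these shares were 76.7% and 67.4%. A match describes the letters of these windows and not binding.

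The study compared WT with MM NFATC1 to look for genes under the control of NFATC1 activity. WT and MM cells also differed in dye and in the NFATC1 reading, as given above. The mutated sites, the NFATC1 level and the dye cannot be told apart in this comparison. Without stable PIM1, 2 of the 40 genes passed the test, PFKL and CA9, both higher in WT cells (0.555% of all genes were), and 0 were lower (0.249% of all genes were). At an unadjusted p below 0.05 in limma, 12 were higher and 2 lower, but all genes were not counted at that threshold, so these counts have no background share. PFKL was higher in WT cells by 0.58 (SE 0.0562, adjusted p = 0.00589) and CA9 by 0.52 (SE 0.0771, adjusted p = 0.0268). With WT replicate 1, WT replicate 2 or MM replicate 1 left out neither passed, and with MM replicate 2 left out PFKL alone did. Within Cy3, WT and control cells differed in 0 of the 40 genes by limma (0.233% of all genes passed). At an unadjusted p below 0.05 in limma, 9 were higher and 1 lower, again without a count of all genes beside them. The nearest to the adjusted threshold were PKM, higher in WT cells by 0.61 (adjusted p = 0.0512), and PFKL, lower by 0.33 (adjusted p = 0.0689).

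With stable PIM1, 11 of the 40 genes were higher with WT than with MM NFATC1 (8.54% of all genes were), 6 were lower (7.5% of all genes were) and 2 were called (0.342% of all genes were). These calls were lost with the centrings: after median centring 0 of the 40 passed, and after centring on the 75th percentile 3 were higher, 1 was lower and 1 was called. Among the 14 glycolytic enzymes 7 were higher and 1 was lower, with a median of 0.318 against -0.028 over all genes. The called genes were BSG, higher by 1.40 or 2.63-fold (SE 0.076, adjusted p = 3.51e-05 from limma), and PKM, higher by 1.06 or 2.09-fold (SE 0.0962, adjusted p = 0.000182). PFKL followed with 0.78, ENO1 with 0.69, GAPDH with 0.58, LDHA with 0.53, ENO2 with 0.40, PGAM1 with 0.32 and TPI1 with 0.27. The 2 probes of PGAM1 disagreed, at -0.14 and 0.78. CA9 was higher by 0.36 and PFKFB4 by 0.27, with CA9 at -0.08 after centring on the 75th percentile. The lower genes were ANKRD37 (-0.52), ADM (-0.51), SLC16A1 (-0.46), EGLN1 (-0.41), SLC2A1 (-0.32) and PFKM (-0.23).

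The WT minus MM difference with stable PIM1 was then set against the difference without it, an interaction in which a constant dye effect on a gene cancels. Of the 40 genes, 3 passed in each direction (2.18% of all genes passed in either) and BSG was called (0.0505% of all genes were). The interaction was positive for BSG, at 1.15 (SE 0.107, adjusted p = 0.00464 from limma), for PKM, at 0.78 (SE 0.136, adjusted p = 0.0245), and for ENO1, at 0.53 (SE 0.0833, adjusted p = 0.0183). LDHA and GAPDH were at 0.36 (adjusted p = 0.0737) and 0.39 (adjusted p = 0.0962) and did not pass the test. It was negative for ANKRD37, a nuclear ankyrin repeat gene, at -0.72 (SE 0.117, adjusted p = 0.0187), for ADM at -0.56 (SE 0.0823, adjusted p = 0.0145) and for SLC16A1 at -0.54 (SE 0.096, adjusted p = 0.0266). BSG passed in all 9 fits with a sample or array left out, with its difference between 1.06 and 1.24, but after centring on the median or on the 75th percentile 0 of the 40 genes passed, BSG included. With array as a fixed block 9 passed, LDHA (adjusted p = 0.0446 from limma) and GAPDH (adjusted p = 0.0344) among them. The other 5 genes kept their sign with a sample or array left out but passed in 2 or 3 of the 9, and without either WT or MM sample, or PIM1+WT replicate 1, BSG alone passed.

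**Figure D3:**
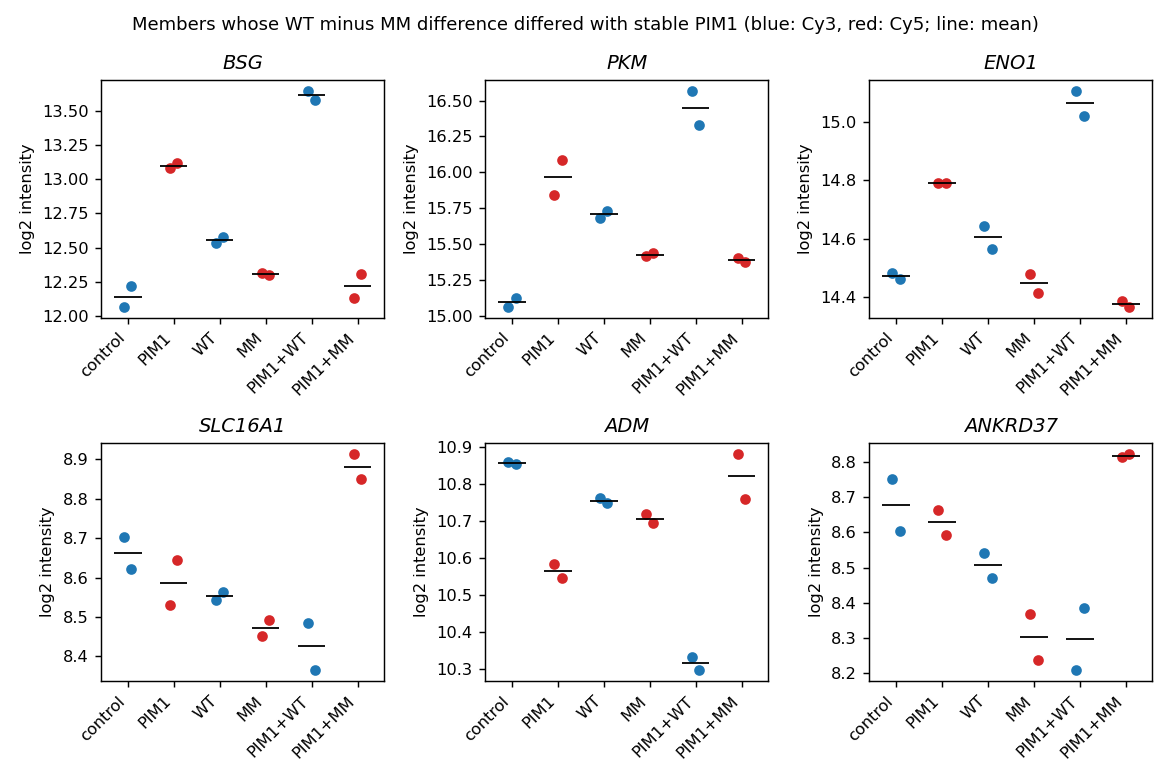
Log2 intensity (y axis) of BSG, PKM, ENO1, SLC16A1, ADM and ANKRD37 in each sample of the 6 groups (x axis), with Cy3 samples in blue, Cy5 samples in red and the group mean as a line. BSG, PKM and ENO1 are highest in PIM1+WT cells, and in the lower panels PIM1+MM cells lie above PIM1+WT cells.

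The values per sample show where each of the latter genes differed. ANKRD37 read 8.75 and 8.60 in control cells, 8.66 and 8.59 in PIM1 cells, 8.54 and 8.47 in WT cells, 8.37 and 8.24 in MM cells, 8.21 and 8.39 in PIM1+WT cells and 8.81 and 8.82 in PIM1+MM cells. SLC16A1 read 8.70 and 8.62 in control cells, 8.53 and 8.64 in PIM1 cells, 8.54 and 8.56 in WT cells, 8.45 and 8.49 in MM cells, 8.48 and 8.36 in PIM1+WT cells and 8.91 and 8.85 in PIM1+MM cells. For both genes the PIM1+MM samples were the highest of all 12. ADM read 10.86 and 10.85 in control cells, 10.58 and 10.54 in PIM1 cells, 10.76 and 10.75 in WT cells, 10.72 and 10.70 in MM cells, 10.33 and 10.30 in PIM1+WT cells and 10.88 and 10.76 in PIM1+MM cells, so that its PIM1+WT samples were the lowest of all 12.

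Multi-mutant NFATC1 in PIM1 cells was compared with PIM1 cells alone within Cy5. Of the 40 genes, 3 were higher in PIM1+MM cells (5.2% of all genes were) and 13 were lower (7.16% of all genes were). BSG fell by 0.88 (adjusted p = 0.000683 from limma), P4HA1 by 0.60 (adjusted p = 0.00638), PKM by 0.58 (adjusted p = 0.00695), NDRG1 by 0.56 (adjusted p = 0.0206), LDHA by 0.54 (adjusted p = 0.0019) and ENO1 by 0.41 (adjusted p = 0.00382). SLC16A1, ADM and PFKM rose by 0.29, 0.26 and 0.23. The PIM1 and PIM1+MM samples also enter the comparisons above, so these values are not independent of them. The labels give PIM1 cells no transient transfection, so that transfection and NFATC1 cannot be told apart here. When the fit was restricted to these groups, 0 of the 40 genes passed the test by limma. After centring on the median or on the 75th percentile 0 passed as well.

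Since these genes are among the brightest on the array, their shifts were set under 5 normalizations: quantile, centring of each channel on its median or on its 75th percentile, loess within arrays with Aquantile, and cyclic loess. Centring on the median moved the median of the brightest class by -0.729 between PIM1 and control cells, by 0.169 between PIM1+WT and PIM1+MM cells and by -0.346 between PIM1+WT and WT cells, against 0.005, -0.076 and -0.041 under quantile. It moved the median of all genes in these comparisons to 0.13, -0.114 and 0.138, and centring on the 75th percentile moved it to 0.652, -0.422 and 0.368. GAPDH, at 0.56 between PIM1 and control cells under quantile, was at 0.70 after loess, 0.71 after cyclic loess, 0.44 after centring on the 75th percentile and -0.08 after centring on the median. ENO1, LDHA, PGK1 and SLC2A1 likewise turned negative after median centring, to -0.47, -0.37, -0.40 and -0.16. BSG, P4HA1, PFKFB4 and PKM kept their sign, at 0.23, 0.39, 0.40 and 0.16. Of the 18 genes that rose, 6 were above 0 under all 5 normalizations, and of the 6 that fell, 5 were below 0, PFKFB3 being the exception.

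**Figure D4:**
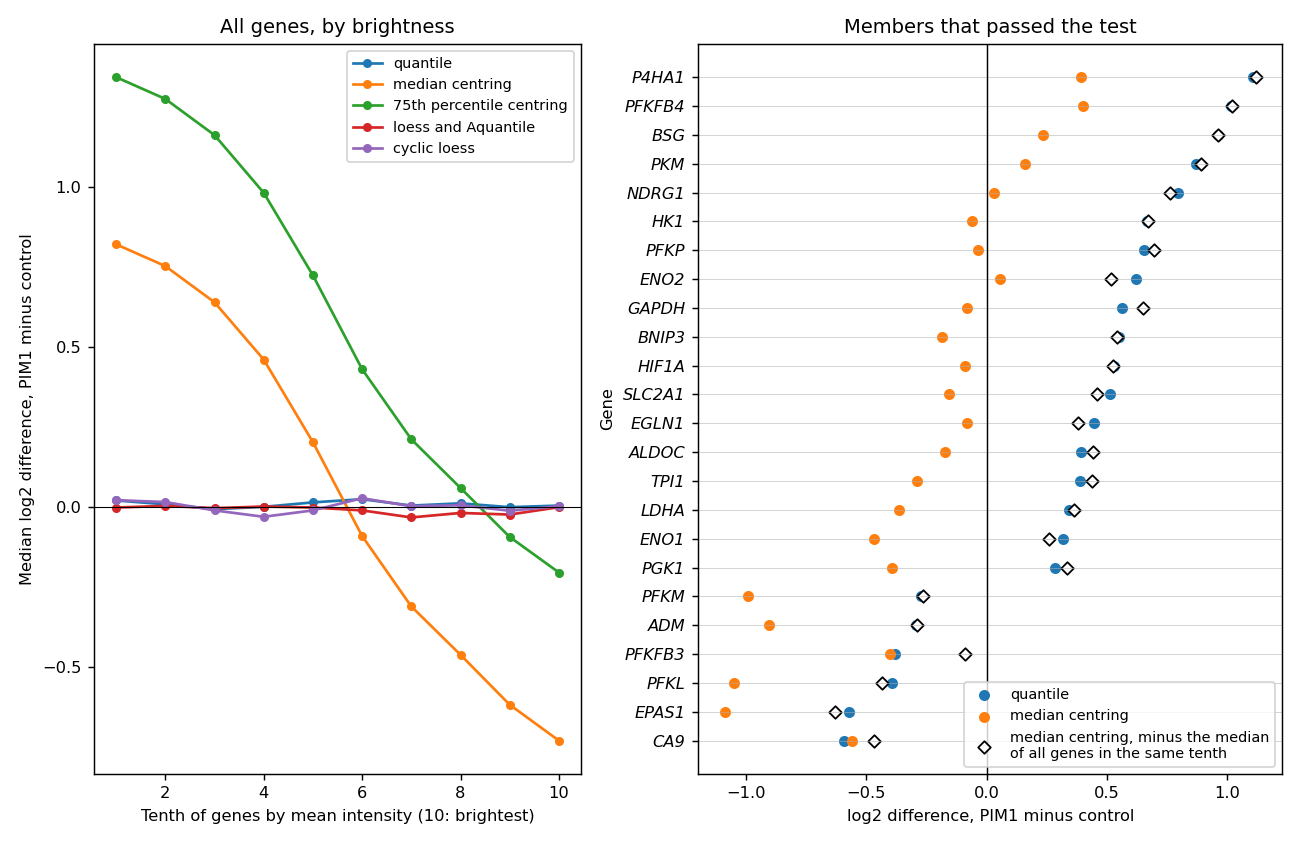
Left, median log2 difference of all genes between PIM1 and control cells (y axis) by class of mean intensity (x axis, 10 equal classes from dim to bright) under 5 normalizations; the centred values fall from dim to bright genes and the other 3 stay near 0. Right, the 24 genes that passed the test (y axis) with their difference (x axis) under quantile normalization, under median centring, and under median centring less the median of all genes in the same class, where all of them keep the sign they have under quantile; GAPDH goes from 0.56 to -0.08 to 0.65.

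In the comparisons with NFATC1 more signs were kept, but not the calls. After median centring 1 gene passed between PIM1+WT and WT cells and 0 between PIM1+MM and MM cells, and after centring on the 75th percentile 5 and 3 did, while 0 passed under all 5 normalizations in either. Between PIM1 and control cells 7 and 9 passed after these centrings, and 2 that fell passed under all 5. Between PIM1+WT and WT cells 11 of the 12 genes that rose, all but LDHA, and all 5 that fell kept their sign under all 5 normalizations, and between PIM1+MM and MM cells 10 of 10 and 4 of 4 did. Between PIM1+WT and PIM1+MM cells these counts were 9 of 11 and 5 of 6, with CA9, TPI1 and PFKM the exceptions, and in the interaction 3 of 3 and 3 of 3. GAPDH stayed between 0.22 and 0.58 in PIM1+WT against PIM1+MM cells, and between 0.16 and 0.54 in PIM1+WT against WT cells. As a check chosen after the data were seen, each difference was taken relative to the median of all genes in the same intensity class. Between PIM1 and control cells all 18 and all 6 genes then kept their sign under the 5 normalizations, and GAPDH lay between 0.56 and 0.71. That step removes most of what the 5 normalizations differ by, so that it describes these genes against others of like brightness and says nothing of an absolute level. ACTB, another bright reference gene, differed between PIM1 and control cells by 0.53 under quantile and by -0.10 after median centring, and TBP, a dimmer one, differed by -0.05 under quantile.

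Other genes of glucose metabolism and of the hypoxia response were read from lists chosen with earlier results of these data known. Of 21 neighbouring genes of glucose metabolism, 5 rose and 2 fell in PIM1 cells, where 12.6% and 12.4% of all genes did, with a median of 0.047. PGM1, which links glycogen to glycolysis, rose by 1.13 in PIM1 cells (adjusted p = 3.34e-06 from limma), by 0.53 in PIM1+WT cells and by 0.65 in PIM1+MM cells. PDHA1, a subunit of pyruvate dehydrogenase, fell by 0.60 in PIM1 cells (adjusted p = 0.00465).

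Of 18 further HIF targets tested, 7 rose and 1 fell in PIM1 cells, against the same shares of all genes, with a median of 0.089. DDIT4, an inhibitor of mTOR signalling, rose by 0.75 in PIM1 cells (adjusted p = 0.00023 from limma), by 0.52 in PIM1+WT cells and by 0.54 in PIM1+MM cells. ANGPTL4, a lipase inhibitor, rose by 0.70, 0.32 and 0.62 in these comparisons. Of 10 partners and regulators of HIF 2 rose and 1 fell, and of 15 enzymes of the citric acid cycle 5 rose and 3 fell, with medians of 0.208 and -0.05, and the counts of the partners lie near the 12.6% and 12.4% of all genes. The 10 reference genes gave 4 that rose and 3 that fell, with a median of 0.086.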

How the data were processed

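Total RNA of 12 samples was hybridised to 6 two-colour Agilent 4x44K arrays, each dye holding 1 sample. The authors scanned the arrays on an Agilent scanner and extracted the intensities with Feature Extraction 11.0.1.1, and the submitters' processing notes name GRCh37 (hg19). Per the file headers, the deposited scanner files hold spot intensity per channel, of which the median signal was used (no mean signal is in them). A further table of log2 values deposited by the authors differed by at most 0.0844 from quantile-normalized log2 median signals and was an alternative. No background was subtracted. Control spots and outlier spots were left out, and the other spots of a probe were averaged. Probes above the 90th percentile of negative controls in at least 2 of 12 channels were kept (31484 of 34127), and the 12 channels were then quantile normalized. The median over its probes stood for a gene, named through the RefSeq table of GRCh38.p14. All 6 groups were fitted together with limma 3.58.1 in R 4.3.3, with Benjamini-Hochberg adjustment over 25746 genes. The script was tested on simulated data. Values per sample are given for 17 genes, namely those called in any comparison, the 5 largest differences among those that passed in PIM1 minus control, in either comparison of WT with MM and in the interaction, and SLC2A1, GAPDH, LDHA, PGK1, HIF1A and EPAS1. PFKFB3 was added after its values were seen. The members and lists were chosen with earlier results of these data known. Same-numbered samples deviated together within arrays (correlations of 0.345 to 0.833) and by 0.051 to 0.171 between arrays, so the number was not taken to pair samples. Replicate 1 samples lay on slide 1 and replicate 2 samples on slide 2, so that replicate number and slide cannot be told apart. The main fit held no term for array or slide, and array and replicate number served as blocks in alternatives only. Alternatives covered background correction, normalization, filters, probes, blocks and samples left out. The comparison with the median of genes of like intensity was added after seeing the data.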

Additional observations from a re-analysis of the deposited data

Results flagged for a closer look

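The WT minus MM difference changed with stable PIM1 for 6 genes, by the interaction term of the limma fit. It was larger with stable PIM1 by 1.149 on the log2 scale for BSG, by 0.781 for PKM and by 0.528 for ENO1. It was smaller for SLC16A1 (-0.538), ADM (-0.555) and ANKRD37 (-0.724). BSG also belongs to the genes that the study chose on these samples. All 6 kept their sign under the 5 normalizations, but 0 passed the test after centring on the median or on the 75th percentile. What the difference rests on was not tested.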

How the results depend on the processing

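Of 1607 values of named genes under the alternatives, 1327 kept their direction and their side of the threshold, 270 kept the direction only and 10 turned. The number of the 40 genes that passed moved most with the centring. After median centring it was 7 for PIM1 against control, 0 for WT against MM, 0 for the same with stable PIM1, 0 in the interaction, 1 for stable PIM1 among WT cells, 0 for MM among PIM1 cells, 0 for stable PIM1 among MM cells and 1 in the mean within dyes. After centring on the 75th percentile it was, in the same order, 9, 0, 4, 0, 5, 0, 3 and 8. The values that turned under median centring were, between PIM1 and control cells, ENO1 (-0.468), GAPDH (-0.08), HIF1A (-0.091), LDHA (-0.365), PGK1 (-0.395) and SLC2A1 (-0.158), LDHA in PIM1+WT minus WT (-0.089), and ENO1 (-0.014) and SLC16A1 (0) in the mean within dyes. Under the 75th percentile CA9 turned in PIM1+WT minus PIM1+MM (-0.076). The cause was not tested.

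For WT minus control, 0 in the report, the count was 1 with the processed signal, 2 after loess, 3 after cyclic loess, 1 with the deposited values and 3 with probes above negative controls in all 12 channels. With array as a random block the interaction gave 10. With the groups compared only, WT minus MM gave 0, PIM1+WT minus PIM1+MM 11 and PIM1+MM minus PIM1 0. With samples or an array left out, the count ran from 20 to 22 for PIM1 against control, 0 to 2 for WT against MM, 10 to 19 for the same with stable PIM1, 1 to 7 in the interaction, 0 to 0 for WT against control, 11 to 20 for stable PIM1 among WT cells, 8 to 11 for MM among PIM1 cells, 10 to 15 for stable PIM1 among MM cells and 17 to 23 in the mean. Without the first array of control and PIM1 cells, PIM1+MM minus PIM1 gave 9. With the replicate block the count was 24 for PIM1 against control, 2 for WT against MM, 20 for the same with stable PIM1, 6 in the interaction, 0 for WT against control, 18 for stable PIM1 among WT cells, 14 among MM cells, 16 for MM among PIM1 cells and 21 in the mean, and left 74 of 75 named values as they were. Array as a fixed block gave 26 for PIM1 against control, 2 for WT against MM, 21 for the same with stable PIM1 and 9 in the interaction, and could not be fitted for the others. Dim genes such as CA9 are limited by signal over background.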
